A study of Mus musculus with 74 samples.

Results

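The transcripts of 10 genes of lysosomal proteolysis were followed through spinal cord microglia and sciatic nerve macrophages of mice with amyotrophic lateral sclerosis: 8 cathepsins (Ctsb, Ctsd, Ctsz, Ctsl, Ctss, Ctsf, Ctsc and Ctsh) and 2 cystatins (Cst7 and Cst3). They were taken by symbol, as 10 of the 23297 features that carry a gene symbol, and each of the 10 had 1 row in the table of non-grafted mice and 1 in the table of bone marrow-grafted mice. Cathepsins are proteases of the endosome and lysosome that are made as inactive precursors and matured in acidic compartments. Cystatins are small proteins that block the active site of papain-type cysteine cathepsins. In microglia, cathepsins degrade material taken up by phagocytosis and cleave the invariant chain of class II antigen presentation, and Cst7 is widely used as a marker of microglia around sites of neurodegeneration.

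The transcriptomes came from 74 libraries of CD11b+ cells of female mice, measured by RNA-seq. The disease model was the C57BL/6J mouse that carries mutant hSOD1-G93A, sampled at a pre-symptomatic stage, at onset, at an early symptomatic stage and at end stage. The microglia had control libraries of matching ages from mice that carry wildtype hSOD1 (called WT) and from C57BL/6J mice with no transgene (called B6). In the second table, the hosts were G93A mice grafted at disease onset with marrow of either a G93A or a WT donor.

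The microglia set held G93A libraries at pre-symptomatic (mean age 50.8 days, n = 4), onset (105 days, n = 5), early symptomatic (152.6 days, n = 4) and end stage (169.4 days, n = 4). Its controls were WT at the age of onset (107.3 days, n = 4) and of end stage (165.4 days, n = 4) and B6 at 109.8 days (n = 4) and 165.6 days (n = 4). The macrophage set held G93A libraries at the same 4 stages (n = 3, 3, 4 and 4). A further 4 macrophage libraries of end-stage age carried conflicting labels: their descriptions said WT, and their titles and strain said G93A. They are called the libraries described as WT. Grafted hosts gave microglia and macrophages at the early symptomatic and end stages after marrow of either donor, with 3 libraries per group and 2 for macrophages after WT marrow at the early stage. Each library came from 1 mouse, except that each pre-symptomatic macrophage library pooled the nerves of 2 mice. Because the libraries are bulk RNA from magnetic beads against CD11b, fewer cells of a type and less RNA per cell cannot be told apart, and CD11b is also carried by neutrophils and monocytes.

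Levels are FPKM, which is scaled for transcript length and library size, so that genes can be compared with each other. The summed FPKM was 484604 to 618562 per non-grafted microglia library and 625386 to 986659 per non-grafted macrophage library. The number of reads behind them is unknown. The microglial markers Tmem119 and P2ry12 were at 38.9 FPKM or more in every microglia library of both tables. In the non-grafted macrophage libraries Tmem119 lay between 0 and 63.9 FPKM. P2ry12 was listed at 0 in 4 of them and reached 116.2 FPKM in early replicate 2, above that 38.9. The neutrophil gene S100a8 lay between 24808 and 80760 FPKM in these libraries.

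In the deposited mm10 coordinates the genes lie on 7 chromosomes. On chromosome 2 are Cst7 (chr2:150570414-150578944, plus strand), Cst3 (chr2:148871720-148875512, minus strand) and Ctsz (chr2:174427493-174439039, minus strand). Chromosome 7 holds Ctsd (chr7:142375911-142387901, minus strand) and Ctsc (chr7:88278085-88315861, plus strand). The others are Ctsb (chr14:63122462-63145921, plus), Ctsl (chr13:64361890-64370520, minus), Ctss (chr3:95526783-95556405, plus), Ctsf (chr19:4855129-4860918, plus) and Ctsh (chr9:90054267-90076095, plus). GENCODE vM21 lists all 10 as protein-coding, with principal transcripts of 3 exons in Cst3, 4 in Cst7 and up to 14 in Ctsf. It also lists the protein-coding Gm49369 (chr7:142371096-142382667) over part of Ctsd on the same strand. Fdft1 overlaps the 3′ end of Ctsb and Nelfcd that of Ctsz, both on the opposite strand. No source used here states whether the authors' counting used strand, so reads in those overlaps may belong to either gene. In the non-grafted libraries, 16 pairs of features at the same coordinates on opposite strands had identical values, as given under other observations.

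The start regions were read from RefSeq (GRCm38.p6), which held an entry for 8 of the 10 genes in the table used here (Ctsb and Ctsh had none). A pair of short motifs was searched on both strands in the 250 bases before each start: CACGTG, the core of the CLEAR element bound by regulators of lysosomal genes, and GAGGAA, a core bound by PU.1, a transcription factor of myeloid cells. CACGTG was in 6.02% of 32851 such windows and GAGGAA in 23.3%. Among the 8 genes CACGTG was in the windows of Ctsd (2 matches), Ctsf and Ctsl, and GAGGAA in those of Cst3, Ctsc (2 matches) and Ctss. By GENCODE vM21, Ctsl starts at 64370890, so its window (chr13:64370521-64370770) lies inside the gene. The near Ctsd match also lies inside its gene by GENCODE, which starts at 142388038. Those of Cst7 and Ctsz held neither. The whole windows of Cst7 and Ctss are shown because the rise of both with stage in G93A microglia is described below, while against WT at end stage Cst7 was called and Ctss had a small difference that did not pass. The Ctsd and Cst3 stretches show the motif matches in the most abundant protease and the most abundant inhibitor. Capitals mark the motif on the gene's strand, and the Cst7 window has none. A match is a string of letters and says nothing about binding.
Cst7 window, chr2:150570165-150570414, plus strand: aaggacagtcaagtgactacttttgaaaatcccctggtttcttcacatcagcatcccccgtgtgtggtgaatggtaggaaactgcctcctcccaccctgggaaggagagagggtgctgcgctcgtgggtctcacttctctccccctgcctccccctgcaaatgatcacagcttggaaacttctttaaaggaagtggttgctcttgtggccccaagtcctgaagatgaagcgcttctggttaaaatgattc
Ctss window, chr3:95526536-95526785, plus strand: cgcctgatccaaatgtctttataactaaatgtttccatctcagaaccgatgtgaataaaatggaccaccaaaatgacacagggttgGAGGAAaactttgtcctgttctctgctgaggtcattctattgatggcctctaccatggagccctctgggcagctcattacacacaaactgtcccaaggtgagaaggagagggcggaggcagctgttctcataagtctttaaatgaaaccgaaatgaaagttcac
Ctsd, far match, chr7:142388048-142388077, minus strand: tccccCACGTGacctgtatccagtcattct
Ctsd, near match, chr7:142387908-142387937, minus strand: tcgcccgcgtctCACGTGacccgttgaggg
Cst3, chr2:148875725-148875754, minus strand: aagggcacagaaGAGGAActggtaagaaca

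In G93A microglia, Cst7 and 7 of the 8 cathepsins rose between the pre-symptomatic and the end stage, and Cst3 and Ctsf did not pass the test. The members' median difference in log2(FPKM + 1) was 2.76, against 0.03 over the 11750 genes tested, of which 24.8% were called higher. Calls are from limma on log2(FPKM + 1) at a Benjamini-Hochberg adjusted p under 0.05 over all genes tested. At the early symptomatic stage the same count, 8 of 10, was higher than pre-symptomatic (19.2% of genes tested), with a members' median of 2.59. At onset 4 of 10 were higher (10.3% of genes tested), namely Cst7, Ctsb, Ctsd and Ctsz. Leaving out pre-symptomatic replicate 1, 2 or 3, or onset replicate 2, 3 or 5, left 0 or 1 member called, and there were 8 or 9 without pre-symptomatic replicate 4 or onset replicate 1 or 4. Between early and end stage 0 of 10 were called, with 0% of genes tested called, 0 members at an unadjusted p under 0.05 and 339 of all genes at that level by limma.

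Cst7 encodes cystatin F, an inhibitor made by immune cells that is targeted to lysosomes and acts on cathepsins C, H and L. Its pre-symptomatic libraries held 12.4, 1.56, 3.87 and 2.36 FPKM. At onset they held 18.1, 889.8, 225.9, 22.2 and 45.8 FPKM, at the early stage 719.3, 747, 659.7 and 711.5, and at end stage 1423, 1172, 1363 and 395.3. No library of the 3 later stages overlapped the pre-symptomatic ones, and the onset libraries reached from just above the pre-symptomatic range to above the early libraries. The differences from pre-symptomatic were 4.11 ± 0.78 at onset (SE, adjusted p = 0.0253), 7.19 ± 0.82 at the early stage (adjusted p = 8.41e-06) and 7.64 ± 0.82 at end stage (adjusted p = 1.17e-06) on the log2(FPKM + 1) scale. The mean levels ran in the order end stage G93A (1090 ± 474 FPKM, SD, n = 4), early G93A (709 ± 36.4, n = 4), onset G93A (240 ± 373, n = 5), WT of end-stage age (65 ± 36, n = 4), B6 of end-stage age (6.94 ± 4.11, n = 4), WT of onset age (5.87 ± 1.32, n = 4), pre-symptomatic G93A (5.06 ± 5.02, n = 4) and B6 of onset age (1.69 ± 1.22, n = 4). Early and onset G93A differed by more than the SD of either, as did WT and B6 of end-stage age, although the ranges of both pairs overlapped. The means of all other neighbours in that order lay within 1 SD of each other.

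**Figure D1:**
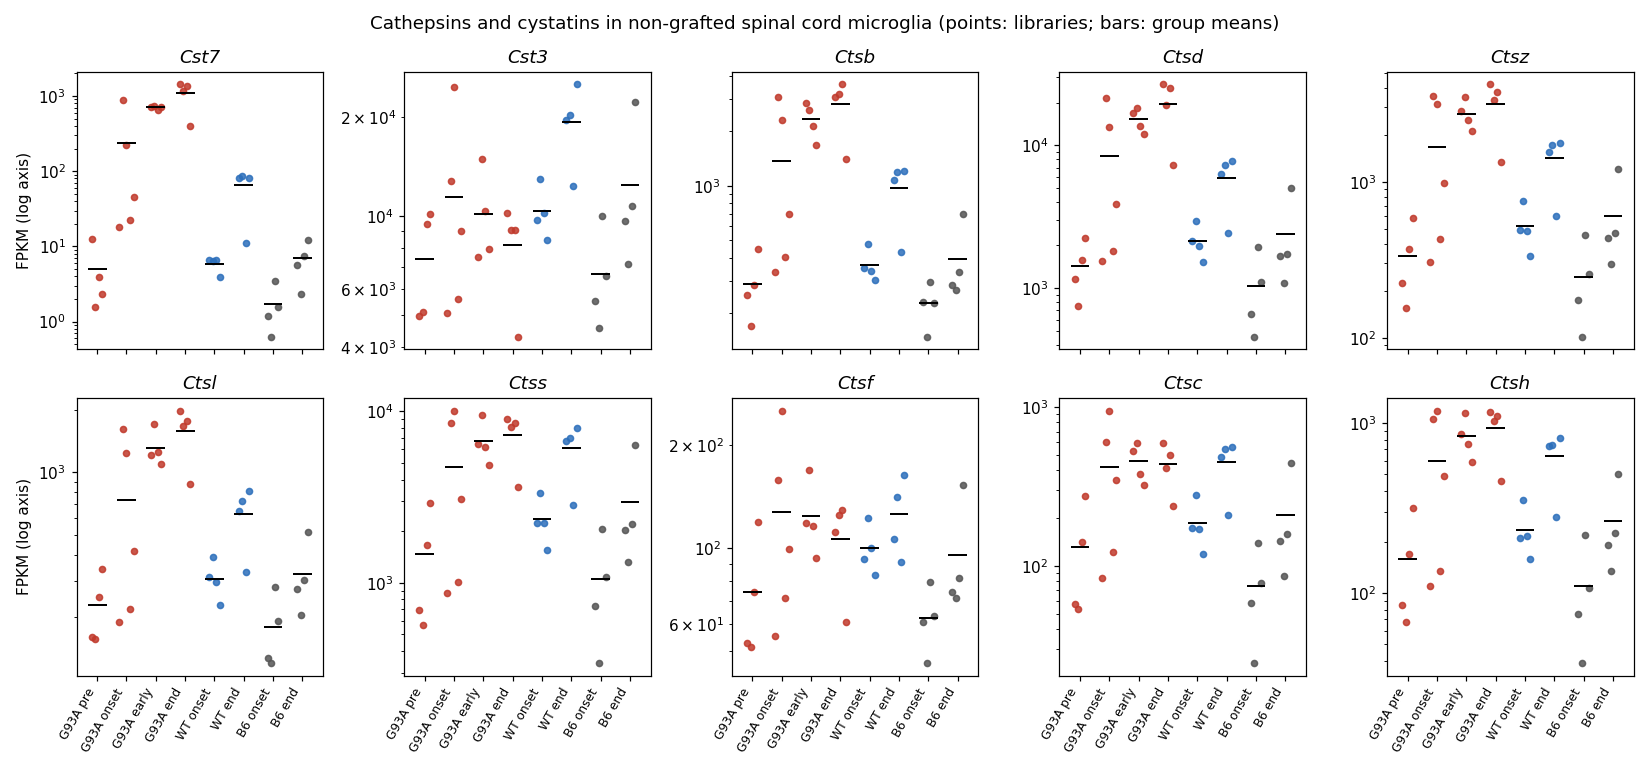
FPKM (log axis) of the 10 genes in each non-grafted microglia library by genotype and stage; points are libraries and bars are group means. The 4 end-stage Cst7 libraries (395.3 to 1423 FPKM) sit above all control libraries, of which the highest is 86.8 FPKM, while Cst3 overlaps across the G93A stages.

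Ctsd, an aspartic protease that cystatins do not block, became the most abundant of the 10. Its pre-symptomatic libraries held 1156, 746.7, 1566 and 2227 FPKM and its end-stage libraries 26773, 19194, 25304 and 7281 FPKM, with no overlap. The difference was 3.73 ± 0.66 (SE, adjusted p = 0.000174). At onset the libraries held 1556, 21352, 13383, 1810 and 3897 FPKM, so that 3 of the 5 were above the pre-symptomatic range.

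Among the cysteine endopeptidases, Ctsb, which also trims dipeptides from protein ends, went from 249.3, 169.7, 284.1 and 445.4 FPKM to 3084, 3180, 3607 and 1405 FPKM, again with no overlap. Its difference was 3.29 ± 0.52 (adjusted p = 5.89e-05). Ctsl, a broad endopeptidase, rose from 228 ± 87.9 to 1570 ± 478 FPKM (SD, n = 4 each), a difference of 2.79 ± 0.49 (adjusted p = 0.000174). Ctss, which stays active at neutral pH and processes the invariant chain, held 698.7, 569.6, 1656 and 2938 FPKM pre-symptomatically and 9014, 8072, 8572 and 3621 FPKM at end stage. It rose by 2.55 ± 0.68 (adjusted p = 0.00359), and its lowest end-stage library was above its highest pre-symptomatic one. Ctsf, another lysosomal cysteine protease, was at 74.4 ± 31.3 and 106 ± 31.3 FPKM, a difference of 0.54 ± 0.36 that did not pass (adjusted p = 0.197). With library quality weights it was 1.05 and passed (adjusted p = 2.96e-06). At the early stage it passed with those weights (0.97, adjusted p = 1.55e-05) and without pre-symptomatic replicate 4 (1.03, adjusted p = 0.0321). The share of all genes called with the weights was not counted, here or below.

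The other 3 members trim protein ends. Ctsz, a carboxypeptidase, rose from 334 ± 191 to 3150 ± 1260 FPKM (SD, n = 4 each), by 3.29 ± 0.63 (adjusted p = 0.00033). Ctsh, an aminopeptidase, rose from 67.2 to 314.6 FPKM pre-symptomatically to 455.6 to 1155 FPKM at end stage, by 2.72 ± 0.64 (adjusted p = 0.00152). Ctsc, the dipeptidyl peptidase that activates granule serine proteases, had the smallest difference of the 8 called, 1.96 ± 0.64 (adjusted p = 0.0119). Its pre-symptomatic libraries held 57.7, 53.6, 142.2 and 275.4 FPKM and its end-stage libraries 589.5, 412.4, 498 and 238.4 FPKM, so that 1 library of each group crossed. Without pre-symptomatic replicate 2 its difference was 1.64 and no longer passed (adjusted p = 0.0511). At the early stage its call was lost without pre-symptomatic replicate 1 or 2 or early replicate 2, with adjusted p between 0.0635 and 0.0693, and with terms for oligodendrocyte and neutrophil marker scores in the model (1.05, adjusted p = 0.107).

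Cst3 encodes cystatin C, a secreted inhibitor of all papain-type cathepsins that astrocytes also make. Its pre-symptomatic libraries held 4990, 5119, 9443 and 10173 FPKM and its end-stage libraries 10241, 9039, 9063 and 4308 FPKM. The groups overlapped, with a difference of 0.14 ± 0.46 (adjusted p = 0.805). With library quality weights it passed at end stage (0.62, adjusted p = 0.0207) and at the early stage (0.72, adjusted p = 0.00918). It was the most abundant member pre-symptomatically, at 7430 ± 2760 FPKM, ahead of Ctss (1470 ± 1090) and Ctsd (1420 ± 631), which lay within 1 SD of each other. At end stage Ctsd was first at 19600 ± 8870 FPKM, followed by Cst3 at 8160 ± 2630 and Ctss at 7320 ± 2500, which lay within 1 SD of each other.

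The make-up of the microglia libraries moved along with these differences. The summed FPKM of 10 oligodendrocyte markers was 27891 to 32472 pre-symptomatically and 1842 to 11288 at end stage, where 9 of the 10 fell (median -2.0), and 8 of 9 astrocyte markers fell (median -3.13). Of 7 macrophage markers tested 6 rose (median 2.50). Of 10 microglia markers 2 rose (median 0.57), and their sum was 1725 to 8678 pre-symptomatically and 3704 to 10557 at end stage. The 10 neutrophil markers summed to 39.6 to 390.5 pre-symptomatically and 533.4 to 49634 at end stage, with S100a8 at 20413 FPKM in end-stage replicate 4. The oligodendrocyte gene Mbp was at 23950, 1575, 568.3, 18996 and 2194 FPKM in the 5 onset libraries. In the 2 with the most Mbp, Cst7 was at 18.1 and 22.2 FPKM, the lowest of the 5. With terms for the oligodendrocyte and neutrophil marker scores in the model, 5 of the 8 members called at end stage passed. Under it Ctsh (1.04, adjusted p = 0.137), Ctss (0.87, adjusted p = 0.269) and Ctsc (0.35, adjusted p = 0.675) did not pass, and at onset 0 of 10 passed.

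As a description added after seeing the data, levels were set against the summed FPKM of the 10 microglia markers in the same library. Per FPKM of those markers, the 8 cathepsins together held 0.836 to 1.55 FPKM pre-symptomatically, 1.39 to 3.12 at onset, 2.79 to 3.78 at the early stage and 3.95 to 4.69 at end stage. In the controls the same ratio was 1.01 to 1.27 in WT and 1.2 to 1.68 in B6 at the age of onset, and 1.26 to 1.54 in WT and 1.14 to 1.26 in B6 at the age of end stage. The early and end-stage G93A libraries thus lay above all 16 control libraries. For Cst7 the ratio was 0.000272 to 0.00718 pre-symptomatically, 0.107 to 0.142 at end stage and 0.00196 to 0.00695 in WT of end-stage age. For Cst3 it was 1.17 to 2.97 pre-symptomatically, 0.859 to 1.16 at end stage, 1.61 to 2.15 in WT and 1.86 to 2.39 in B6 of end-stage age. On this scale the end-stage G93A libraries held less Cst3 than those of the age-matched controls, without overlap. Astrocyte marker sums were 634.7 to 5637 in end-stage G93A, 1861 to 8263 in WT and 5487 to 9641 in B6 of that age. Less Cst3 from astrocytes and less from microglia cannot be told apart on this scale. Microglia markers were not constant either: P2ry12 was lower in end-stage G93A than in WT (-2.35, adjusted p = 0.0238).

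Against WT microglia of the same age, Cst7 was the only one of the 10 that was called, at onset and at end stage. At end stage the WT libraries held 80.3, 86.8, 11.2 and 81.8 FPKM of Cst7, all below the lowest G93A library at 395.3 FPKM. The difference was 4.23 ± 0.82 (SE, adjusted p = 0.0023) at end stage, where 2.81% of genes tested were called higher. At onset it was 3.64 ± 0.78 (adjusted p = 0.0373), where 1.04% were. The end-stage call held under every alternative tried, between 3.32 and 5.37. The onset call was lost without G93A onset replicate 2, 3 or 5 and without any 1 of the 4 WT libraries. Without G93A onset replicate 1 or 4, 5 or 3 members were called.

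Of the other 9, Ctsb, Ctsl and Cst3 had end-stage G93A and WT libraries that did not overlap, although none was called. How many of all genes were without overlap was not counted. Ctsb was at 1069, 1189, 428.9 and 1206 FPKM in WT, a difference of 1.56 ± 0.52 (adjusted p = 0.0651). Without G93A end-stage replicate 4 it was 1.86 and passed (adjusted p = 0.0344). Ctsl was at 652, 727.5, 329.5 and 814.2 FPKM in WT, a difference of 1.33 ± 0.49 (adjusted p = 0.0972). Cst3 was at 19505, 20247, 12298 and 25039 FPKM in WT, so that every WT library was above every G93A one, a difference of -1.27 ± 0.46 (adjusted p = 0.088). With the marker terms above, which included none for astrocytes, it was -1.74 and was called lower (adjusted p = 0.000198). Ctsd differed by 1.69 ± 0.66 (adjusted p = 0.117) and Ctsz by 1.15 (adjusted p = 0.263), with overlapping libraries. Ctss was at 7320 ± 2500 FPKM in G93A and 6140 ± 2270 in WT (SD, n = 4 each), a difference of 0.27 (adjusted p = 0.845), and Ctsc at 435 ± 149 and 450 ± 164, a difference of -0.02 (adjusted p = 0.988). For Ctsh the difference was 0.56 (adjusted p = 0.621) and for Ctsf -0.25. The WT libraries of end-stage age were themselves mixed, with S100a8 at 32464 and 16679 FPKM in replicates 1 and 2, and Mbp at 18315 FPKM in replicate 3. Without the microglia libraries above 10000 FPKM of S100a8, 2 members were called, and Ctsb was at 2.19 (adjusted p = 0.0364). After median-ratio scaling Ctsb passed as well (1.67, adjusted p = 0.0341). With library quality weights Ctsb (1.51), Ctsd (1.65), Ctsl (1.26) and Ctsz (1.07) were called higher and Cst3 (-1.18) lower, with adjusted p up to 0.00427. The share of all genes called with the weights was not counted, and the weights also gave calls between the controls, as described below. These calls cannot be set apart from a general rise in calls.

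Against non-transgenic B6 microglia more members were called. At onset 9 of 10 were higher in G93A (29.4% of genes tested), all but Cst3. The members' median was 2.08 against 0.15 over all genes. Cst7 and Ctsb did not overlap, and how many of all genes were without overlap was not counted. The number of members called was 5 without G93A onset replicate 3, and 1 with the terms for oligodendrocyte and neutrophil scores. When only these 2 groups entered the model it was 0. At end stage 6 of 10 were higher (18.3%): Cst7 by 7.10 (adjusted p = 4.12e-06), Ctsd by 3.13 (adjusted p = 0.00101), Ctsb by 2.87 (adjusted p = 0.000288), Ctsz by 2.47 (adjusted p = 0.0037), Ctsl by 2.29 (adjusted p = 0.00118) and Ctsh by 1.91 (adjusted p = 0.0184). The first 5 of these did not overlap, and the share of all genes without overlap was not counted. The call of Ctsh was lost without G93A end-stage replicate 1 (1.78, adjusted p = 0.0515) or B6 replicate 2 (1.65, adjusted p = 0.0664), and with the marker terms (0.67, adjusted p = 0.278). Ctss (1.48, adjusted p = 0.0756), Ctsc (1.26, adjusted p = 0.104) and Cst3 (-0.55, adjusted p = 0.325) did not pass. With the marker terms, which included none for astrocytes, Cst3 was called lower (-1.31, adjusted p = 0.00199). Without B6 replicate 4 Ctss (1.93, adjusted p = 0.0281) and Ctsc (1.71, adjusted p = 0.0345) passed, as Ctss did without G93A end-stage replicate 4 (1.79, adjusted p = 0.0471) and with only these groups in the model (adjusted p = 0.0417).

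**Figure D2:**
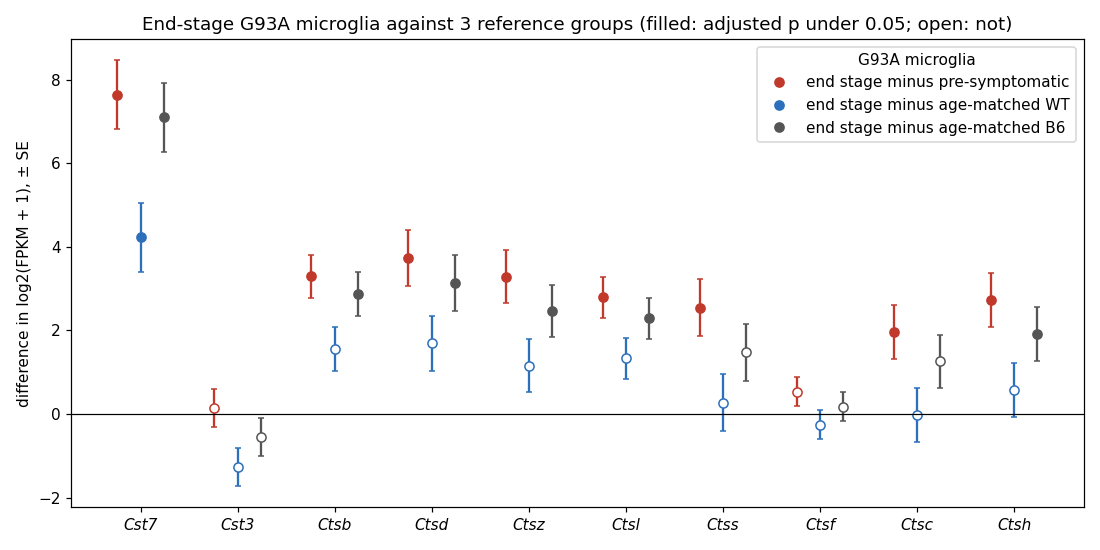
Difference in log2(FPKM + 1) (± SE) between end-stage G93A microglia and pre-symptomatic G93A, WT and B6 microglia for each gene; filled points passed an adjusted p under 0.05. Cst7 is filled in all 3 comparisons (7.64, 4.23 and 7.10), and is the only filled point against WT.

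Between the controls no member was called by limma. WT against B6 gave differences of 0.68 to 1.48 at the age of onset and 0.43 to 2.87 at that of end stage, all above 0, with 0% and 0% of genes tested called. At an unadjusted p under 0.05 there were 1 and 5 members, and 727 and 2421 of all genes. The microglia marker sum was 3380 to 8622 in WT and 758.5 to 4585 in B6 at the age of onset. At that of end stage it was 5728 to 14709 in WT and 3029 to 11912 in B6. The part of cell make-up in these differences was not tested. From onset to end-stage age, WT differed by 0.30 to 2.94, and B6 by 0.55 to 1.51, with 0 members called in either. Of the genes tested, 0.128% were called in either direction in WT and 0.0681% in B6, and 5 and 3 members had an unadjusted p under 0.05. The 2.94 belonged to Cst7 in WT (adjusted p = 0.115), whose 4 older libraries were all above the 4 younger ones (3.89 to 6.64 FPKM). Without WT end-stage replicate 3, the lowest of the older libraries, Cst7 (3.63, adjusted p = 0.02) and Ctsb (1.67, adjusted p = 0.0469) passed. With library quality weights in limma 10, 10, 10 and 7 members were called in these 4 comparisons. The share of all genes called with the weights was not counted, so these counts cannot be set apart from a general rise in calls.

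The balance among the members also differed within libraries. Ctsb and Ctsd together made up 36.9% to 52.3% of the summed FPKM of the 8 cathepsins in pre-symptomatic G93A microglia, 55.9% to 62.3% at the early stage and 56.9% to 64.7% at end stage. In WT and B6 of end-stage age they made up 39.8% to 43.9% and 37.4% to 39%. Ctss moved the other way, from 26% to 40.5% pre-symptomatically to 19.2% to 23.7% at end stage, against 36% to 39.3% in WT and 38.1% to 42.5% in B6. The end-stage G93A libraries therefore did not overlap either control, for either share. The 8 cathepsins as a whole held 0.399% to 1.49% of the summed FPKM of a library pre-symptomatically and 2.59% to 8.15% at end stage, compared with 1.35% to 3.72% in WT and 0.665% to 2.72% in B6.

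The inhibitors shifted in opposite directions relative to the proteases. The ratio of Cst7 to Ctsc, one of its target enzymes, was 0.00857 to 0.216 pre-symptomatically, 0.132 to 1.49 at onset, 1.26 to 2.2 at the early stage and 1.66 to 2.84 at end stage. It was 0.0541 to 0.165 in WT and 0.0271 to 0.047 in B6 of end-stage age, so that Cst7 exceeded Ctsc in every early and end-stage G93A library and in no control library. Against its other targets the ratio was lower: at end stage it was 0.868 to 1.24 to Ctsh and 0.45 to 0.772 to Ctsl, compared with 0.0401 to 0.117 and 0.0341 to 0.123 in WT. Cst7 was thus below Ctsl in every non-grafted microglia library, and below Ctsh in 3 of 4 early and 1 of 4 end-stage G93A libraries. Cst3 stood at 140% to 260% of the summed cathepsins pre-symptomatically, at 23.6% to 39.4% at the early stage and at 20.3% to 28.2% at end stage. In WT and B6 of end-stage age it stood at 105% to 170% and 149% to 207%. The summed cathepsins include Ctsd, which cystatins do not block and which rose with stage. The fall of Cst3 is thus not relative to its targets alone, and its ratio to the cysteine cathepsins alone was not computed. These ratios are of transcripts and were described without a test.

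**Figure D3:**
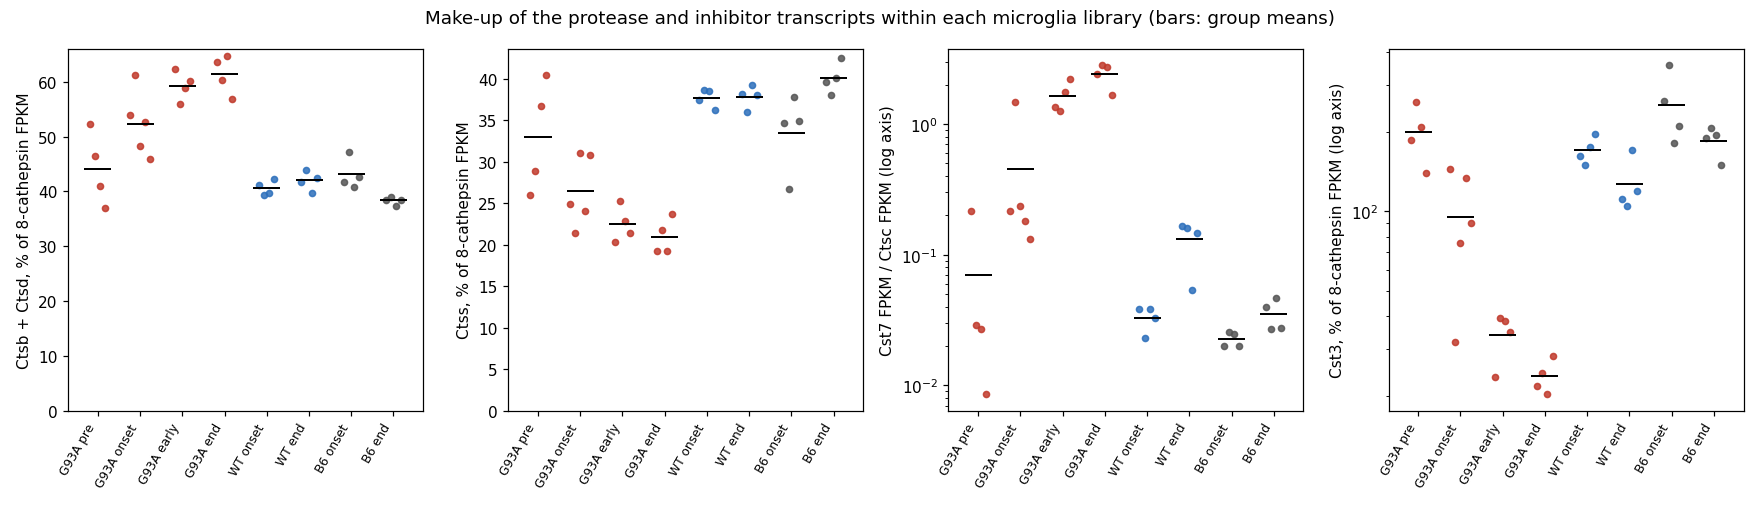
Ratios of member transcripts within each non-grafted microglia library by genotype and stage; points are libraries and bars are group means. The share of Ctsb and Ctsd and the ratio of Cst7 to Ctsc are higher in the 4 end-stage G93A libraries than in the 8 age-matched control libraries. Cst3 relative to the summed cathepsins, Ctsd included, is lower.

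Over the 8 microglia groups, the mean of log2(FPKM + 1) of Cst7 followed that of Ctsb (Pearson r 1.00), Ctsd (0.99), Ctsl (0.99), Ctsz (0.98) and Ctsh (0.94) most closely, then Ctss (0.90), Ctsc (0.88) and Ctsf (0.74), and least that of Cst3 (0.17). Of 5537 genes with a mean of at least 10 FPKM, those with the pattern most like Cst7 were Atf3 (0.9996), Tubb6 (0.9989) and Itgax (0.9976). For Ctsd they were Gusb (0.999), Ctsa (0.9989) and Renbp (0.9988), and for Cst3 they were Mrpl32 (0.9759), Commd8 (0.9746) and Bmyc (0.9639). The groups also differ in cell make-up, as given above, and these are descriptions over 8 points.

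The wider lysosomal system moved at end stage too. Of 19 lysosomal hydrolases tested 17 were higher than pre-symptomatic and 1 lower (median 1.84 against 0.03 over all genes), led by Gla (3.75), Galns (3.42) and Lipa (3.14), and Smpd1 fell by 0.54. Of 18 genes of the lysosomal membrane and proton pump 17 were higher (median 1.40), led by the pump subunit Atp6v0d2 (5.58), Cd68 (3.67) and Grn (3.33), which encodes progranulin. In the list of genes of sorting to the lysosome 5 of 8 were higher (median 0.86), and in that of regulators 5 of 6 were higher and 1 lower, including Spi1, which encodes PU.1 (2.06), and Tfe3 (0.94), while Nr1h3 fell by 0.72. All 7 tested genes of class II presentation, the pathway in which Ctss acts, were higher, with Cd74 at 3.69. Against WT of the same age, 2 of the 19 hydrolases were higher (Gla 2.21, Galns 1.83), and 6 of the 18 membrane and pump genes, including Atp6v0d2 (4.82) and Cd63 (1.65). Of the sorting genes Gnptab was higher (1.37), and 0 of 6 regulators and 0 of 7 class II genes passed.

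Other proteases and inhibitors of the same families were read from lists chosen with earlier results of these data known. Of 7 further cathepsins, 4 were higher at end stage than pre-symptomatic, including Ctse (4.22), Ctsa (3.03) and Ctsw (1.71), and 2 were lower, Ctsk (-1.18) and Ctso (-0.64). Of 18 other cystatins and stefins, 4 reached a mean of 1 FPKM and 2 of them were higher, the cytosolic inhibitor Cstb (2.70) and Stfa2l1 (2.32). Cstb was also higher than in WT (1.40, adjusted p = 0.0192). Of 14 serpins and other protease inhibitors 6 were higher, led by Ctla2b (3.46), Timp2 (2.79) and Ctla2a (2.42). Against WT 3 were higher, Serpina3n (3.12), Ctla2a (2.54) and Timp1 (1.75). None of the 5 serine proteases matured by cathepsin C passed in either comparison (medians 0.77 and -1.01).

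In sciatic nerve macrophages of G93A mice, no member passed the test at any stage. At onset, early and end stage 0, 0 and 0 of 10 were called against pre-symptomatic, with 0%, 0% and 0.00975% of genes tested called, and 1, 1 and 2 members had an unadjusted p under 0.05. Cst7 held 23.2, 45.8 and 0 FPKM pre-symptomatically and 3.25, 59.1, 134.2 and 24.8 FPKM at end stage, with 2 of the 4 end-stage libraries above the pre-symptomatic range. Ctsd held 418.1, 606.1 and 445.2 FPKM and then 547, 2604, 2300 and 495.6 FPKM, a difference of 1.22 (adjusted p = 0.654). At end stage 2 of the 4 Ctsd libraries were within the pre-symptomatic range. Ctsb held 268.7, 692.5 and 420.5 FPKM and then 148.2, 408.2, 420.3 and 325.9 FPKM, with overlap. Ctsc held 157.6, 860.5 and 520.5 FPKM and then 242.1, 138.6, 249.8 and 154.7 FPKM. Without pre-symptomatic replicate 1, the lowest of the 3 pools, Ctsc was lower at the early (-1.80, adjusted p = 0.0499) and end stages (-1.81, adjusted p = 0.0265). Ctsf, low throughout, held 3.69, 36.3 and 26.9 FPKM pre-symptomatically and 0, 1.36 and 0 at onset, without overlap, and the difference did not pass (adjusted p = 0.897). Against the libraries described as WT 0 of 10 were called at end stage (0% of genes tested), with 2 at an unadjusted p under 0.05, and the difference furthest from 0 was that of Ctsl (1.98, adjusted p = 0.614).

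The nerve and spinal cord preparations differed in which members they held. In pre-symptomatic mice Ctsc (1.97, adjusted p = 0.00674) and Ctsh (1.54, adjusted p = 0.0257) were higher in the macrophages (23.6% of genes tested). Cst3 (-2.88, adjusted p = 4.27e-06), Ctsl (-2.89, adjusted p = 0.000321) and Ctsf (-2.07, adjusted p = 0.0017) were lower (31%). Cst7 (1.10, adjusted p = 0.411) and Ctsd (-1.45, adjusted p = 0.0552) did not pass. Cst7 passed without macrophage replicate 3 (2.79, adjusted p = 0.0381), the library listed at 0. Ctsd passed without microglia replicate 2 (-1.72, adjusted p = 0.0352), with only these groups in the model (adjusted p = 0.0127) and after median-ratio scaling (-1.94, adjusted p = 0.00506), under which Ctss passed as well (-1.56, adjusted p = 0.0197). With only these groups in the model neither Ctsc (adjusted p = 0.0563) nor Ctsh (adjusted p = 0.0506) passed. Without macrophage pre-symptomatic replicate 2 neither Ctsc (1.44, adjusted p = 0.0763) nor Ctsh (1.21, adjusted p = 0.126) passed, and 3 members were called. Ctsf did not pass without macrophage replicate 1 (-1.14, adjusted p = 0.0855). Ctsh also did not pass without macrophage replicate 3 (adjusted p = 0.0575) or without microglia replicate 1 (1.33, adjusted p = 0.078) or 2 (adjusted p = 0.103), nor after scaling libraries to a common median ratio (1.04, adjusted p = 0.0801).

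At end stage 9 of the 10 were lower in the macrophages (26.3% of genes tested), with a members' median of -3.26 against -0.37 over all genes. The 9 did not overlap between tissues, and the share of all genes without overlap was not counted. The largest differences were those of Cst7 (-4.99, adjusted p = 0.000157), Ctsl (-4.39, adjusted p = 9.32e-07) and Ctsd (-3.96), and the smallest that of Ctsh (-1.75, adjusted p = 0.0102). Ctsc did not pass (-1.11, adjusted p = 0.118), except with only these groups in the model (adjusted p = 0.0232). Of 19 lysosomal hydrolases 15 were lower in the macrophages and 0 higher. The neutrophil markers were all higher in the macrophage libraries, 10 of 10, and the 10 microglia markers all lower.

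The test of the difference itself, the stage change in macrophages minus that in microglia, was passed by 6 members, all lower (10.3% of genes tested), with a members' median of -2.80 against -0.18 over all genes. They were Cst7 (-6.08 ± 1.49, SE, adjusted p = 0.00674), Ctsb (-3.79, adjusted p = 0.000589), Ctsh (-3.28, adjusted p = 0.00679), Ctsz (-3.15, adjusted p = 0.00738), Ctsc (-3.08, adjusted p = 0.0117) and Ctsd (-2.51, adjusted p = 0.0391). Ctss (-2.27, adjusted p = 0.0611), Ctsl (-1.50, adjusted p = 0.242), Ctsf (-1.38, adjusted p = 0.192) and Cst3 (-0.29, adjusted p = 0.79) did not pass. Ctsf passed without macrophage pre-symptomatic replicate 1 (-2.31, adjusted p = 0.0239). Ctss passed without that library, microglia pre-symptomatic or end-stage replicate 4 or macrophage end-stage replicate 3 (-2.70 to -2.51, adjusted p between 0.0272 and 0.0468). It also passed without the microglia libraries above 10000 FPKM of S100a8 (adjusted p = 0.041) and with only these groups in the model (adjusted p = 0.0385). The Ctsd call was lost when any of 9 libraries was left out: microglia pre-symptomatic replicate 1 or 2, microglia end-stage replicate 1, 2 or 3, macrophage pre-symptomatic replicate 2 or 3, and macrophage end-stage replicate 1 or 4. It was then between -2.57 and -2.12. It was also lost with a pseudocount of 0.1 (adjusted p = 0.0516) and after median-ratio scaling (-2.06, adjusted p = 0.0636). In microglia the neutrophil marker sum was at most 390.5 FPKM pre-symptomatically and at least 533.4 FPKM at end stage, and in macrophages it was between 75073 and 207281 FPKM at all stages. The part of cell make-up in the difference between tissues was not tested.

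**Figure D4:**
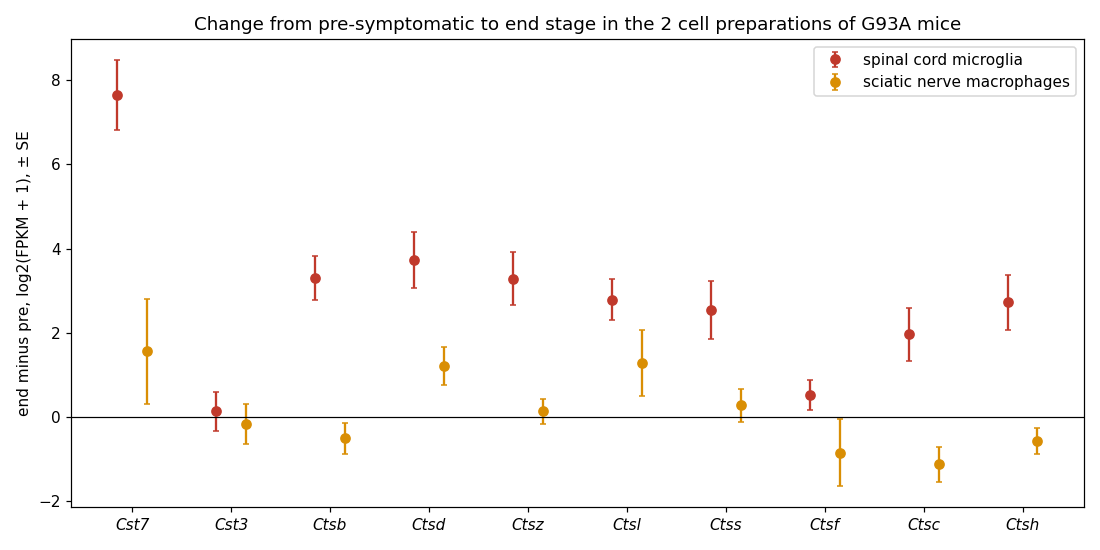
Difference in log2(FPKM + 1) (± SE) between end-stage and pre-symptomatic G93A mice in spinal cord microglia and in sciatic nerve macrophages for each gene. The Cst7 point is at 7.64 in microglia, and the Ctsc points lie on opposite sides of 0, at 1.96 in microglia and -1.12 in macrophages.

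In grafted G93A hosts, the donor of the marrow made no difference that passed the test in microglia or macrophages. At end stage, Cst7 held 2494, 2003 and 2069 FPKM in microglia after G93A marrow and 1874, 2342 and 1715 FPKM after WT marrow, with overlap. Ctsd was at 34800 ± 5890 and 31200 ± 1550 FPKM (SD, n = 3 each). Differences at end stage lay between -0.17 and 0.40, with 0 members called (0% of genes tested), 0 members at an unadjusted p under 0.05 and 53 of all genes at that level by limma.

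At the early stage all 10 members had a negative difference for WT against G93A marrow, between -1.48 and -0.28, and 0 were called (0% of genes tested), with 4 members and 1229 of all genes at an unadjusted p under 0.05. Cst7 held 1967, 1953 and 1308 FPKM after G93A marrow and 1884, 746.1 and 164.6 FPKM after WT marrow, a difference of -1.48 ± 0.64 (adjusted p = 0.435). Ctsd held 31637, 29647 and 26365 FPKM and then 26317, 21225 and 7657 FPKM, without overlap. The lowest library of the WT marrow group, replicate 3, was lowest for all 10 members and had Mbp at 21258 FPKM, against 445.6 to 5325 in the other 5 early libraries. Without replicate 1 of the same group 4 members were lower: Cst7 (-2.28, adjusted p = 0.0117), Ctsh (-1.65), Ctsl (-1.57) and Ctsc (-1.54). That left 2 libraries, of which 1 was replicate 3.

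From the early to the end stage 0 members were called after G93A marrow (0% of genes tested), with 1 at an unadjusted p under 0.05. Ctsc was the one furthest from 0, at 393.2, 451.9 and 333.5 FPKM early and 217.6, 179 and 172.6 FPKM at the end, without overlap (-1.04). After WT marrow 0 were called as well (0%), with differences of 0.41 to 1.67, 4 members at an unadjusted p under 0.05, and 4 called higher without early replicate 1. In grafted macrophages 0 members were called between donors at the early (0%) and the end stage (0%), with 0 and 0 members at an unadjusted p under 0.05 and 245 and 1588 of all genes. The differences lay between -1.08 and 0.13 early and between -0.19 and 1.35 at the end. The ratio of Cst7 to Ctsc in grafted microglia was 3.92 to 5 early and 11.2 to 12 at end stage after G93A marrow. After WT marrow it was 2.39 to 5.12 early and 5.96 to 10.2 at end stage. Ctsb and Ctsd made up 71.2% to 79.2% of the summed cathepsins in the 12 grafted microglia libraries.

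**Figure D5:**
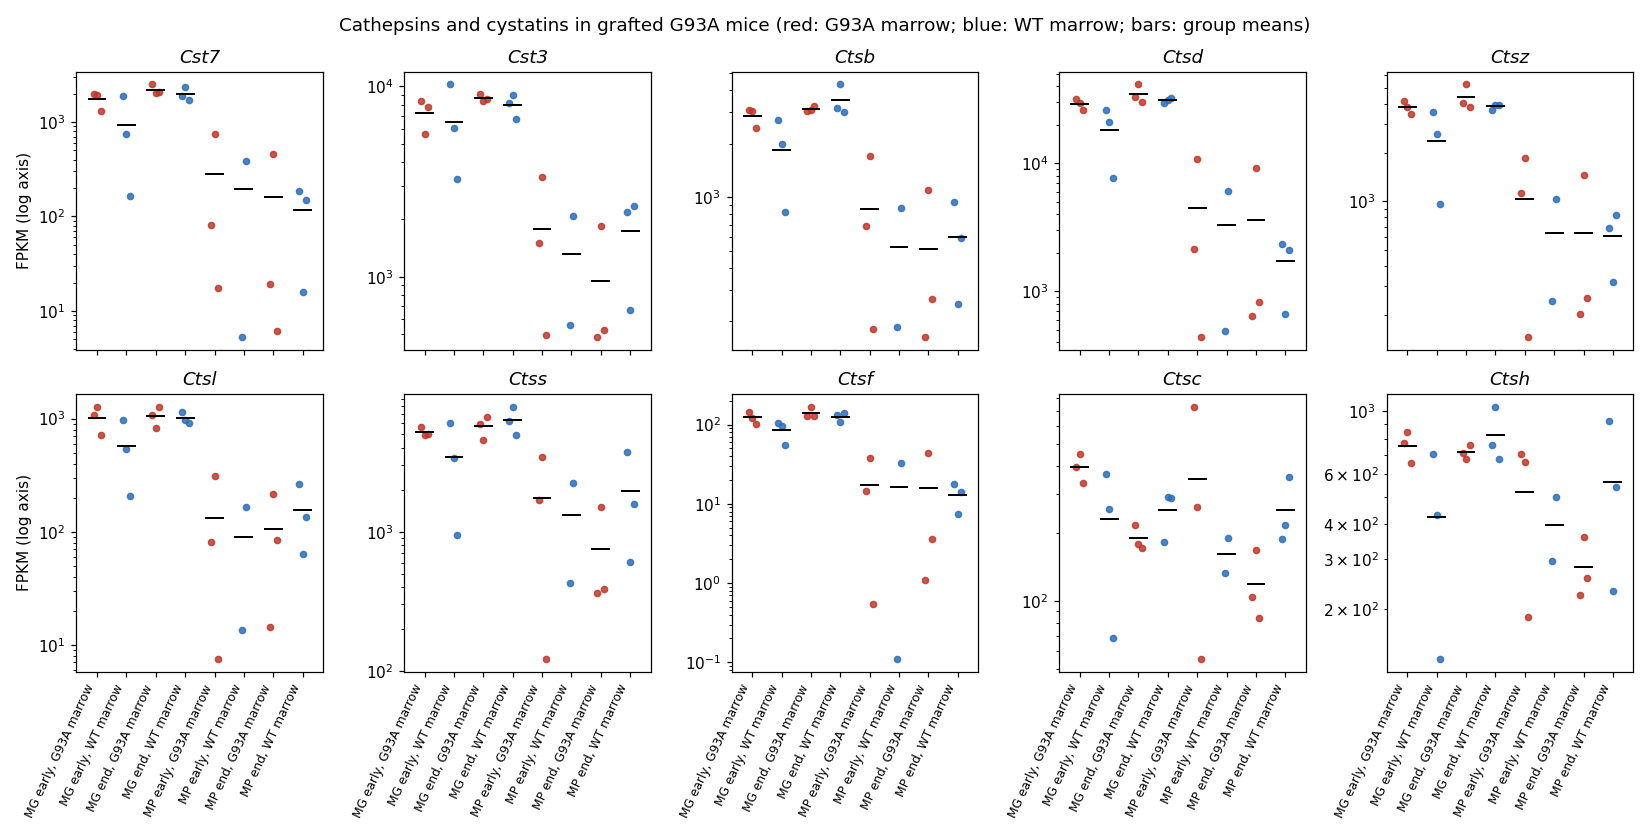
FPKM (log axis) of the 10 genes in microglia and macrophages of grafted G93A mice by donor and stage; points are libraries and bars are group means. End-stage microglia after either marrow hold 1715 to 2494 FPKM of Cst7, and the macrophage libraries spread from 5.3 to 739.8 FPKM.

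Between tissues of grafted hosts at end stage after G93A marrow, 8 of the 10 were lower in macrophages (13% of genes tested). The libraries of all 10 were without overlap, and the share of all genes without overlap was not counted. Cst7 differed by -5.75 (adjusted p = 0.00566) and Ctsd by -4.33 (adjusted p = 0.004), while Ctsc (-0.72, adjusted p = 0.434) and Ctsh (-1.37, adjusted p = 0.0713) did not pass. Without macrophage replicate 1 Ctsl (-2.92, adjusted p = 0.0628) and Ctss (-2.89, adjusted p = 0.0674) did not pass, nor did Ctss without replicate 3 (-2.93, adjusted p = 0.0611). Ctsh passed with only these groups in the model (adjusted p = 0.00216), after median-ratio scaling (-1.56, adjusted p = 0.0281) and with library quality weights (adjusted p = 0.000333), under which Ctsc passed too (-0.84, adjusted p = 0.0464). In 3 grafted macrophage libraries, replicate 2 of the early G93A marrow, early WT marrow and end-stage G93A marrow groups, Cst7 was at 739.8, 385.6 and 458.4 FPKM and Ctsd at 10782, 6066 and 9295 FPKM. The same 3 libraries held Tmem119 at 232.8, 92.7 and 160.8 FPKM, and the other 8 held 0.08 to 27 FPKM. Whether cells of another tissue took part in those levels was not tested.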

How the data were processed

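RNA-seq of 74 libraries was read from the deposited tables, 1 for 51 non-grafted and 1 for 23 grafted libraries, and each was analysed on its own. Per the file headers, the values the authors deposited are FPKM per gene. Tools listed in the submitters' processing notes, with no roles, are DESeq2, Picard, FastQC, SAMtools and R 3.2.5, and the build listed is mm10. No source used here names the aligner, the counter or the use of strand. The depth is unknown, and no interval for counting error is given. FPKM were transformed to log2(FPKM + 1) from the values the authors deposited. This understates the change of low genes. Genes with a mean of at least 1 FPKM over the libraries of a model were tested with limma 3.58.1 (R 4.3.3), with group means, moderated variances with a trend and Benjamini-Hochberg adjustment, and called at an adjusted p under 0.05. Separate models held the non-grafted microglia (33 libraries), non-grafted macrophages (18), grafted microglia (12) and grafted macrophages (11), and comparisons between tissues used all libraries of a table. Replicates were separate mice, or pools of 2 mice. Within a tissue, replicate numbers did not pair libraries: the mean correlation of same-numbered deviations was between -0.031 and 0.011. Whether cord and nerve libraries came from the same mice was not checked, and comparisons between tissues treated them as unpaired.

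The 10 members are named in every comparison. Of the other lists, up to 3 called genes per direction are named, by size of change, except for 1 gene that is not reported here. The members and all lists were chosen with earlier results of these data known. The scripts were tested on simulated data.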

Additional observations from a re-analysis of the deposited data

Results flagged for a closer look

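Single libraries stood apart from the rest of their group, by Dixon's test of the gap to the nearest library, in 11 of 110 combinations of gene and group of 4 or 5 libraries. Chance flags about 1 in 20 groups, and the tests share libraries. In microglia, Cst7 at onset was 889.8 FPKM in replicate 2, with the next highest at 225.9 FPKM. In WT microglia Cst7 was lowest in onset-age replicate 4, at 3.89 FPKM against 6.4 in the nearest, and in end-stage-age replicate 3, at 11.2 FPKM against 80.3. The same end-stage-age replicate 3 was lowest for Ctsh, at 280 FPKM against 732.1, and had the most Mbp of its group. Replicate 4 of B6 microglia of end-stage age was highest for Ctsb (694.9 FPKM), Ctsd (5045 FPKM) and Ctsf (152.7 FPKM), and had the most Tmem119 of its group (1175 FPKM). In macrophages, early replicate 2 was highest for Cst3 (3702 FPKM) and Ctss (1532 FPKM), and held the most Tmem119 of the non-grafted macrophage libraries (63.9 FPKM). Replicate 1 of the macrophage libraries described as WT was highest for Ctsc (499.8 FPKM) and Ctsf (15.2 FPKM).

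The end-stage minus pre-symptomatic change differed between macrophages and microglia by the interaction test for 6 members, with log2 differences of -6.08 for Cst7, -3.79 for Ctsb, -3.28 for Ctsh, -3.15 for Ctsz, -3.08 for Ctsc and -2.51 for Ctsd. The macrophage libraries held 75073 to 207281 FPKM of the 10 neutrophil markers, and the part of that make-up in the difference was not tested.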

How the results depend on the processing

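No member that was called changed sign in any of 1039 alternative values, and 153 of 2831 values that were not called did. The number of members called moved as follows. For onset against pre-symptomatic microglia (4 called) it was 1 without the filter on low values, 0 with a replicate block, 10 with quality weights per library, 0 with only the compared groups in the model, 1 without microglia libraries above 10000 FPKM of S100a8 and 0 with marker terms (oligodendrocyte and neutrophil scores). For onset against WT (1 called) the same settings gave 0, 0, 9, 0, 0 and 0. For onset against B6 (9 called) it was 0 with only the groups compared and 1 with marker terms. For end stage against pre-symptomatic (8 called) it was 5 with marker terms. For end stage against WT (1 called) it was 2 after median-ratio scaling, 6 with quality weights, 2 without the S100a8 libraries and 2 with marker terms. Quality weights also gave 10 for WT against B6 at onset age, 10 at end-stage age, 10 for WT and 7 for B6 across ages, 9 for marrow donors in early grafted microglia and 5 for end against early grafted microglia after WT marrow, where 0 were called without them. Leaving out 1 replicate gave 0 to 9 for onset against pre-symptomatic, 0 to 5 for onset against WT, 1 to 2 for end stage against WT, 5 to 9 for onset against B6, 0 to 2 for WT across ages, 0 to 1 for early and for end-stage against pre-symptomatic macrophages, 0 to 4 for marrow donors in early grafted microglia, 0 to 4 for end against early after WT marrow and 3 to 5 for pre-symptomatic macrophages against microglia. The number of all genes called was counted only in the main model and after median-ratio scaling. The causes of these shifts were not tested. A term for the neutrophil score, added after seeing the data, left 0 called in each of the 6 macrophage comparisons of stage or donor. Within a tissue, replicate numbers share only a number (mean correlation -0.031 in microglia), and the block moved no other count by over 1.5 times. Median-ratio scaling turned the split of all called genes from 384 lower among 506 to 4 lower beside 29 higher for onset against WT, from 330 higher and 492 lower to 554 and 255 for end stage against WT, from 2783 and 3651 to 2075 and 4897 for pre-symptomatic macrophages against microglia, from 1120 and 1209 to 1641 and 841 for the tissue difference in stage change, and from 9 and 6 to 12 and 3 for WT across ages. It moved the median of all genes from -0.17 to -0.58 for pre-symptomatic macrophages against microglia from -0.18 to 0.20 for the tissue difference, from 0.15 to 0.015 for onset against B6 and from -0.084 to -0.24 for grafted macrophages against microglia.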

Other observations

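The table of non-grafted libraries also lists unnamed features that lie over members on the opposite strand. The one over Cst3 (chr2:148871717-148875693) held 4% to 4.69% of the FPKM of Cst3 in each of the 51 libraries (Pearson r 0.9998 across libraries), and the one over Ctsd (chr7:142375909-142388039) held 2.67% to 3.62% of the FPKM of Ctsd (r 0.9999). In addition, 51 pairs of features are listed at the same coordinates on both strands, and of the 16 with a mean of at least 0.5 FPKM all 16 pairs had identical values in all 51 libraries.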
